A study of Drosophila melanogaster with 15 samples.

Results

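The genes described here lie on chromosome 4, the smallest autosome of Drosophila melanogaster, and were read in messenger RNA of SL2 cells after knockdown of CLAMP or of MSL2. They are the gene models of the deposited expression files that a RefSeq annotation places on chromosome 4, whose RPKM averaged 1 or more across the 3 libraries, each represented by its transcript with most reads. RPKM is the read count scaled by transcript length and by the total of the library. The ribosomal gene RpS3A was left out by this rule, and its values are given at the end. The rule used the mean level and no comparison between libraries, but it was chosen with earlier results of these data known. It gave 56 genes out of 7485 with that level and out of 15139 in the files. Of 87 gene models on chromosome 4, another 30 were below the level limit. The limit fell in a gap, since the lowest gene inside it, CG33521, had a mean RPKM of 2.20 and the highest outside it, Ekar, had 0.574.

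Chromosome 4 is unusual among fly autosomes. Much of it carries the marks of heterochromatin, including the protein HP1a, yet its genes are expressed. The protein encoded by Pof binds the transcribed genes of this chromosome and is known to raise their output. It has often been compared with the male-specific lethal (MSL) complex, which binds the male X chromosome with the roX RNAs and raises the output of X-linked genes.

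All 3 libraries came from SL2, a line grown from male embryos whose cells resemble blood cells. The groups were SL2 cells with CLAMP RNAi, SL2 cells with MSL2 RNAi, and SL2 cells with control RNAi, each treated for 6 days at 25 °C and sequenced as 1 library. CLAMP is a zinc finger protein that recognises GA-rich DNA, and MSL2 is a subunit of the MSL complex. The sequence used for control RNAi is not given in the labels, and the other 12 samples of the series, CLAMP immunoprecipitation and input DNA, were not analysed here. The stated aim of the messenger RNA libraries concerns X-linked genes, and no question about chromosome 4 is stated.

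Each target was lower in its own library. Clamp had an RPKM of 19.8 in CLAMP RNAi cells, 66.9 in MSL2 RNAi cells and 66.2 in control cells, and msl-2 had 19.4, 5.16 and 19.8 in the same order of libraries. Library totals lay between 67844405 and 68301197. The 8 blood cell markers were all detected, with a summed RPKM of 6868 in CLAMP RNAi cells, 5419 in MSL2 RNAi cells and 4606 in control cells. Of the neuron markers, nSyb and Syt1 were below 0.1 RPKM in every library, and elav lay between 5.41 and 8.25. The summed blood cell markers were higher in both knockdown libraries, in which the genes described below were lower. Most of the sum came from SPARC, Col4a1, vkg and Pxn, and the rise was uneven. SPARC had 3241 in CLAMP RNAi cells, 2142 in MSL2 RNAi cells and 2013 in control cells. In the same order srp had 91.7, 87.2 and 83.3, and NimC1 had 5.04, 4.14 and 4.27. The part of these markers in the results was not tested.

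With 1 library per group there is no replicate check and no p-value, so genes are described by their size of difference. The log2 ratio is that of RPKM plus 0.1, which understates the change of low genes. Where a pair of log2 ratios to control follows a gene or list, the one for CLAMP RNAi stands before the one for MSL2 RNAi. A gene is counted as lower or higher when it is past 1.5-fold. Intervals given for a read ratio are exact 95% Clopper-Pearson intervals for counting error only. PCR copies of a molecule are not independent, so these intervals may be too narrow. It is not stated whether the counts, called reads here, are of reads or of fragments, and counting both ends of a fragment would also make the intervals too narrow. Both knockdown libraries are set against the same control library, and a feature of that library would enter both comparisons.

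Log2 ratios to control were lower for chromosome 4 genes than for genes of the major autosomal arms in both knockdown libraries. This held across most of the chromosome, and the distance was small. In CLAMP RNAi cells the median log2 ratio to control was −0.32 over the 56 genes, against −0.05 over 6059 genes of arms 2L, 2R, 3L and 3R. The difference was −0.27, with a 95% order-statistic interval over genes of −0.34 to −0.21, or a ratio of 0.829. In MSL2 RNAi cells the medians were −0.35 for chromosome 4 and 0.03 for the major arms. That difference was −0.38 (interval −0.42 to −0.29), or a ratio of 0.771. The intervals treat genes as independent and do not cover the spread between cultures. In bulk RNA, less RNA per cell and fewer cells of a kind that expresses these genes cannot be told apart.

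By log2 ratio to control, most members lay below the major arms. Below the median of the major arms lay 48 of the 56 genes in CLAMP RNAi cells, or 85.7%, where all tested genes gave 50.2%. For the MSL2 RNAi library it was 53 genes, or 94.6%, against 57.5% of all tested genes. The read ratio had its whole counting interval below the median ratio of the major arms for 46 members in CLAMP RNAi cells and for 51 in MSL2 RNAi cells. Over all tested genes the same rule took 32% and 42.9%. In 50 of the 56 genes the log2 ratio was below 0 in both comparisons, beside 40.2% of all tested genes. In 39 members it lay between −0.6 and −0.1 in both, beside 18.3% of all tested genes. That band encloses the middle 50% of members in each comparison, so this count restates their lower medians and adds no support. Both comparisons share the control library. The middle 50% of members ran from −0.45 to −0.21 in CLAMP RNAi cells and from −0.48 to −0.22 in MSL2 RNAi cells. This spread is close to that of the major arms, whose interquartile range was 0.25 in CLAMP RNAi cells and 0.29 in MSL2 RNAi cells, beside 0.24 and 0.26 for chromosome 4.

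**Figure D1:**
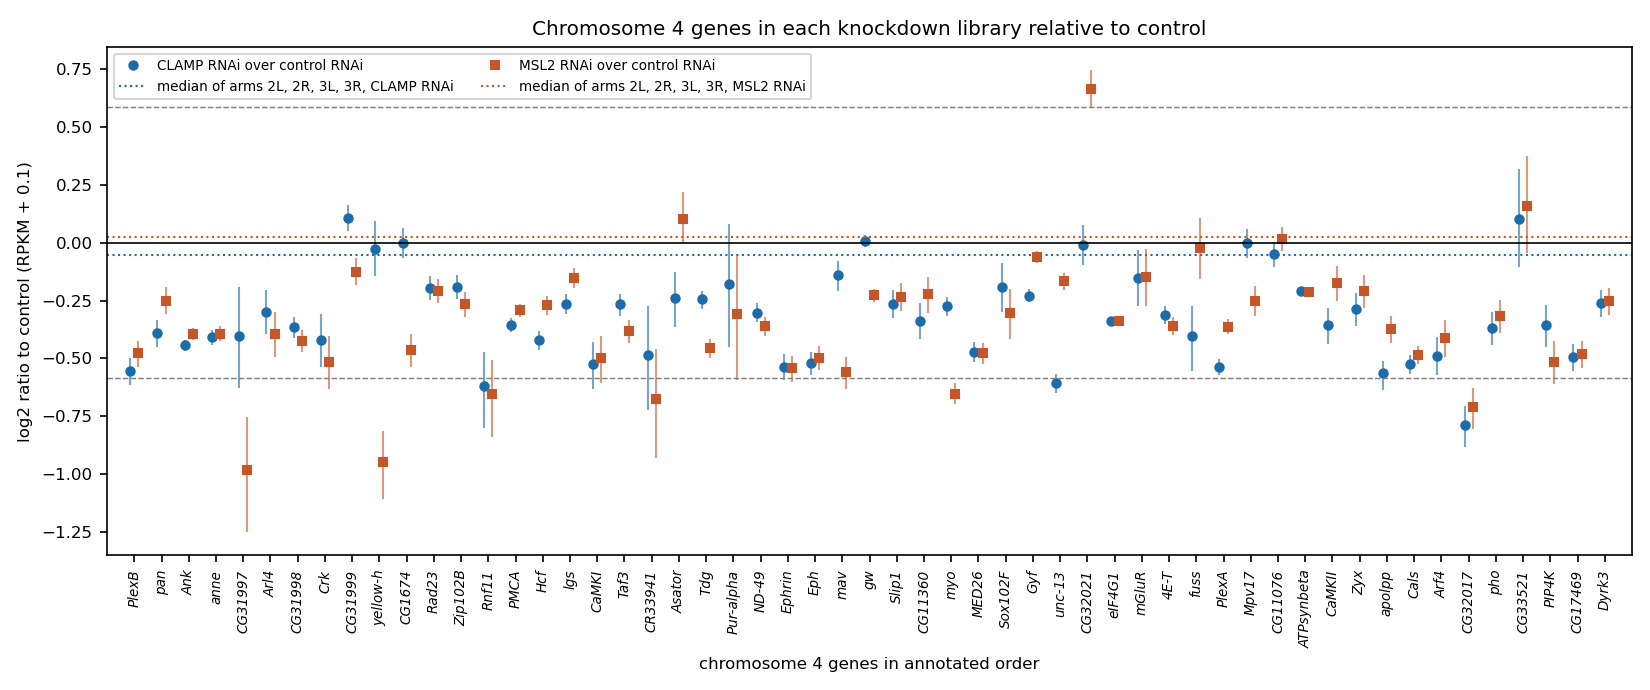
Log2 ratio of 55 of the 56 chromosome 4 genes to control RNAi (RPKM plus 0.1), in annotated order, for CLAMP RNAi (circles) and MSL2 RNAi (squares). Vertical lines are exact 95% counting intervals of the read ratio, dotted lines the medians of the major arms and dashed lines 1.5-fold, and most points lie below both dotted lines with CG32021 in MSL2 RNAi cells as the one point above the upper dashed line.

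Few members were past 1.5-fold. In CLAMP RNAi cells 3 genes were at least 1.5-fold lower, or 3 of 56 where 3.86% of all tested genes were, and 0 were higher, where 1.5% of all were. The MSL2 RNAi library had 6 lower and 1 higher, beside 5.32% and 2.53% of all tested genes. By the log2 ratio of RPKM plus 0.1 no member was past 2-fold, but CG31997 was at the edge of it in MSL2 RNAi cells. Its read ratio there was 0.5002 (interval 0.421 to 0.593), and with the major-arm median set to 0 its log2 ratio was −1.01, past 2-fold. The counts of lower genes are sensitive to the scale. In CLAMP RNAi cells the count was 1 gene, CG32017, with a pseudocount of 1 or with the major-arm median set to 0. In MSL2 RNAi cells a pseudocount of 1 gave 4 genes, without Rnf11 (−0.54) and CR33941 (−0.55). With the major-arm median set to 0 the MSL2 RNAi count stayed at 6. The shares of all tested genes were not computed under these alternatives.

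Expression levels show the same order of libraries. The median RPKM of the 56 genes was 20.9 in CLAMP RNAi cells, 20.1 in MSL2 RNAi cells and 25.2 in control cells. The major arms had medians of 20.8, 21.7 and 21.8 in that order. Chromosome 4 genes thus stood at 1.01 times the median level of the major arms in CLAMP RNAi cells, 0.928 times in MSL2 RNAi cells and 1.16 times in control cells. Their summed reads were 411681 in CLAMP RNAi cells, 409664 in MSL2 RNAi cells and 507333 in control cells, or 0.603%, 0.604% and 0.746% of the library totals. The 2 knockdown libraries held nearly equal sums, and control held more.

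**Figure D2:**
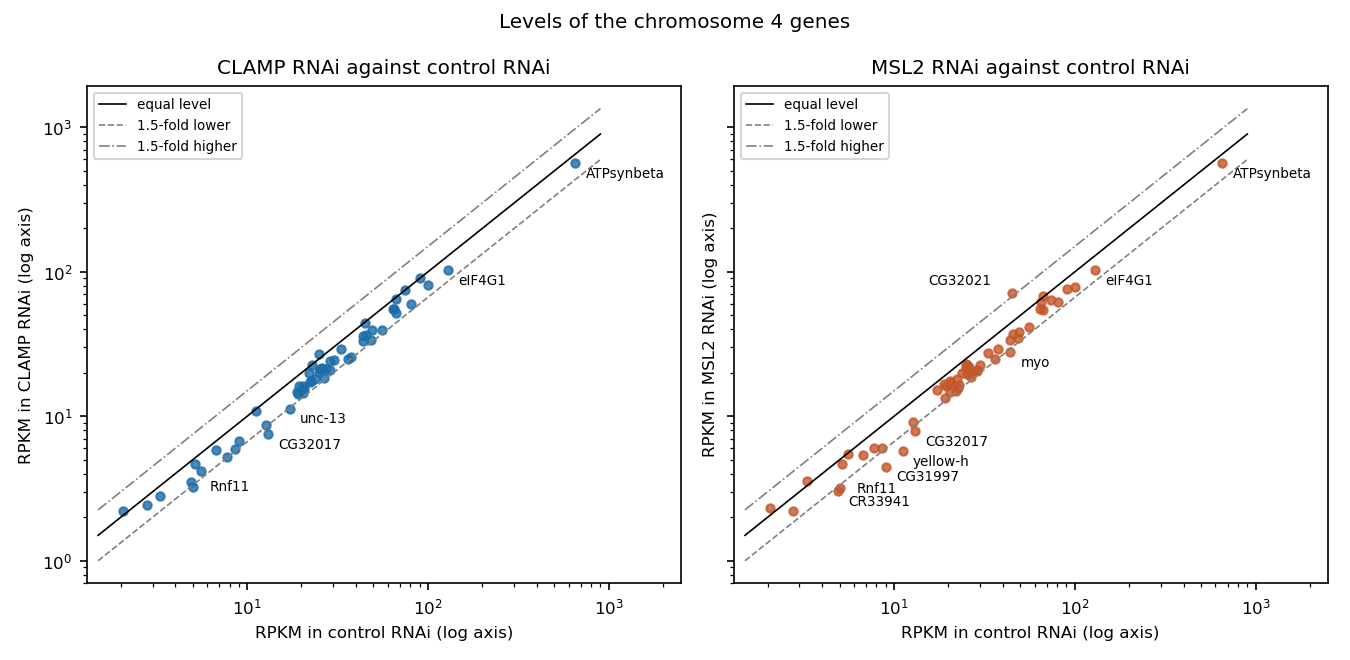
RPKM of each chromosome 4 gene in a knockdown library (vertical log axis) against control RNAi (horizontal log axis), with CLAMP RNAi on the left and MSL2 RNAi on the right. The solid line marks equal levels and the broken lines 1.5-fold, named genes are those past 1.5-fold and the 2 most expressed, and most points lie between the line of equal levels and the line of 1.5-fold lower, up to ATPsynbeta at 654 RPKM in control cells.

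The most expressed member was ATPsynbeta, which encodes the beta subunit of the mitochondrial ATP synthase. It had an RPKM of 566 in CLAMP RNAi cells, 564 in MSL2 RNAi cells and 654 in control cells, so control was the highest library. Its read ratio to control was 0.866 in CLAMP RNAi cells (interval 0.857 to 0.875) and 0.863 in MSL2 RNAi cells (0.854 to 0.872). The other gene on the mitochondrial list, ND-49, encodes a subunit of respiratory complex I. ND-49 had an RPKM of 81.7 in CLAMP RNAi cells, 78.4 in MSL2 RNAi cells and 101 in control cells, with log2 ratios of −0.30 and −0.36. Mpv17, named for a protein of the inner mitochondrial membrane and on no role list, did not follow them in CLAMP RNAi cells. Its RPKM was 90.7 in CLAMP RNAi cells, 76.3 in MSL2 RNAi cells and 91.0 in control cells, with log2 ratios of −0.00 and −0.25.

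Of the 4 genes listed for RNA and translation, 3 were below the major-arm median in CLAMP RNAi cells and 4 in MSL2 RNAi cells. Over all 56 members the shares were 85.7% and 94.6%, and over all tested genes 50.2% and 57.5%. Most members of any role list thus lie below that median, and such counts are not results about the role. The list medians were −0.27 and −0.28, beside −0.06 and −0.02 over all tested genes. The translation initiation factor gene eIF4G1 had an RPKM of 102 in CLAMP RNAi cells, 102 in MSL2 RNAi cells and 130 in control cells, and both its log2 ratios were −0.34. The 4E-T gene, whose product binds the cap-binding protein eIF4E, stood at −0.31 and −0.36. Gyf, which encodes a GYF-domain protein, was at −0.23 in CLAMP RNAi cells and −0.06 in MSL2 RNAi cells. The gawky gene gw, which encodes the GW182 partner of Argonaute in microRNA silencing, was the exception in CLAMP RNAi cells. Its RPKM was 74.7 in CLAMP RNAi cells, 63.4 in MSL2 RNAi cells and 74.3 in control cells, with log2 ratios of 0.01 and −0.23. The 8 transcripts listed for gw lay within 0.01 of each other in CLAMP RNAi cells, but isoforms of a gene can share reads.

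All 4 axon guidance genes were among the lowest members in CLAMP RNAi cells. PlexA and PlexB encode plexins, receptors for semaphorins, and Eph and Ephrin encode a receptor tyrosine kinase and its ligand. Ephrin had an RPKM of 25.0 in CLAMP RNAi cells, 24.9 in MSL2 RNAi cells and 36.2 in control cells, and Eph had 18.5, 18.8 and 26.6. The log2 ratios in CLAMP RNAi cells were −0.54 for Ephrin, −0.52 for Eph, −0.54 for PlexA and −0.55 for PlexB. The MSL2 RNAi library had −0.54 for Ephrin, −0.50 for Eph, −0.36 for PlexA and −0.48 for PlexB. The list medians were −0.54 in CLAMP RNAi cells and −0.49 in MSL2 RNAi cells, and none of the 4 was past 1.5-fold.

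The TGF-beta family ligand genes on this chromosome differed more in MSL2 RNAi cells than in CLAMP RNAi cells. Of 3 listed, myo (myoglianin) and mav (maverick) were expressed. The RPKM of myo was 36.1 in CLAMP RNAi cells, 27.8 in MSL2 RNAi cells and 43.8 in control cells. Its read ratio was 0.826 in CLAMP RNAi cells (interval 0.802 to 0.850) and 0.636 in MSL2 RNAi cells (0.616 to 0.656), so the intervals of its read ratios do not overlap and the ratio in the MSL2 RNAi library was past 1.5-fold. For mav the RPKM was 19.9, 14.9 and 22.0 in the same order of libraries, with log2 ratios of −0.14 and −0.56. In MSL2 RNAi over CLAMP RNAi, myo stood at −0.38 and mav at −0.42.

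Of 15 listed genes for transcription and chromatin, 7 passed the level limit, and all 7 were below the major-arm median in both comparisons. So were 85.7% and 94.6% of all 56 members, and 50.2% and 57.5% of all tested genes. The median log2 ratio of the 7 was −0.37 in CLAMP RNAi cells and −0.32 in MSL2 RNAi cells. MED26, which encodes a Mediator subunit, stood at −0.47 and −0.48, and Hcf, the host cell factor gene, at −0.42 and −0.27. The gene pho encodes pleiohomeotic, a DNA-binding protein of the Polycomb group, and stood at −0.37 and −0.32. Taf3, a TFIID subunit gene, was at −0.27 and −0.38, and the Sox gene Sox102F at −0.19 and −0.30. CG17469, an older model of the lysosomal regulator gene Mitf, was at −0.49 and −0.48. Pur-alpha, the next to lowest member by level, was at −0.18 and −0.31. None of the 7 was past 1.5-fold.

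The Wnt and Hedgehog effectors gave 2 expressed genes of 3 listed. The pangolin gene pan encodes the TCF factor at the end of the Wnt pathway, and legless (lgs) encodes its BCL9-type cofactor. For pan the RPKM was 18.1 in CLAMP RNAi cells, 20.0 in MSL2 RNAi cells and 23.7 in control cells, with log2 ratios of −0.39 and −0.25. For lgs the log2 ratios were −0.26 and −0.15. The transcripts of pan differed more than those of any other member in CLAMP RNAi cells. Its 10 transcripts ran from −0.70 to −0.29 in CLAMP RNAi cells and from −0.48 to −0.16 in MSL2 RNAi cells. The low end in both was transcript RI, with 747 reads in CLAMP RNAi cells, 865 in MSL2 RNAi cells and 1220 in control cells. The others, with more reads, lay between −0.39 and −0.29 in CLAMP RNAi cells. In MSL2 RNAi cells the widest range within a gene was that of anne, at 0.36, beside 0.32 for pan. Across the 35 members with several transcripts at the level limit, the median range within a gene was 0.02 in both comparisons.

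Kinases, GTPases and adaptors gave 7 expressed genes of 8 listed, all 7 below the major-arm median in CLAMP RNAi cells and 6 in MSL2 RNAi cells. Among all 56 members 85.7% and 94.6% lay below it, and among all tested genes 50.2% and 57.5%. The list medians were −0.36 and −0.40. Crk, which encodes an SH2 and SH3 adaptor, stood at −0.42 and −0.51, and the lipid kinase gene PIP4K at −0.36 and −0.52. The small GTPase genes Arf4 and Arl4 were at −0.49 and −0.41, and at −0.30 and −0.40. CaMKII, the calcium/calmodulin-dependent kinase gene, was at −0.36 and −0.17, and Dyrk3 at −0.26 and −0.25. Asator, a kinase gene with an RPKM of 2.80 in CLAMP RNAi cells, 3.57 in MSL2 RNAi cells and 3.31 in control cells, was at −0.24 and 0.10.

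Membrane transport and secretion gave 6 expressed genes of 10 listed, all 6 below the major-arm median in both comparisons, with medians of −0.47 and −0.33. The share below it was 85.7% and 94.6% over all 56 members, and 50.2% and 57.5% over all tested genes. The synaptic priming gene unc-13 was the member of this list past 1.5-fold. Its RPKM was 11.3 in CLAMP RNAi cells, 15.3 in MSL2 RNAi cells and 17.2 in control cells. The read ratio was 0.656 in CLAMP RNAi cells (interval 0.637 to 0.675) and 0.890 in MSL2 RNAi cells (0.867 to 0.914). With the longest transcript its log2 ratio in CLAMP RNAi cells was −0.55, short of 1.5-fold. The lipophorin gene apolpp stood at −0.56 and −0.37, the calsyntenin gene Cals at −0.53 and −0.48, and anne, which encodes a P-type ATPase, at −0.41 and −0.39. The 8 transcripts of anne ran from −0.68 to −0.40 in CLAMP RNAi cells and from −0.74 to −0.38 in MSL2 RNAi cells. Its transcripts RC, RD, RE and RF were past 1.5-fold lower in both and had fewer reads than its others. PMCA, the plasma membrane calcium pump gene, was at −0.36 and −0.29, and the zinc transporter gene Zip102B at −0.19 and −0.27.

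The cytoskeletal genes Ank (ankyrin) and Zyx (zyxin) were expressed out of 3 listed. Ank had an RPKM of 59.6 in CLAMP RNAi cells, 61.7 in MSL2 RNAi cells and 81.1 in control cells, with log2 ratios of −0.44 and −0.39, and Zyx was at −0.29 and −0.21. Both repair and proteolysis genes were expressed. Rad23, whose product binds ubiquitin and takes part in excision repair, was at −0.20 and −0.21, and Tdg, a thymine DNA glycosylase gene, at −0.25 and −0.45.

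**Figure D3:**
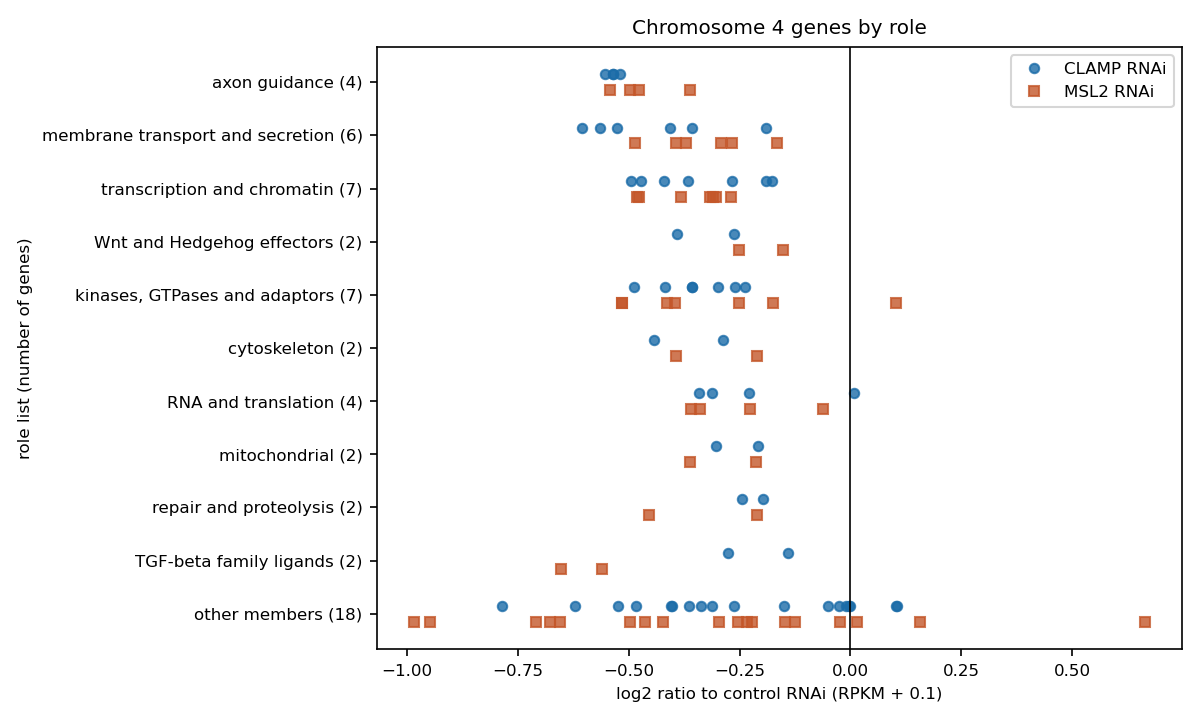
Log2 ratio to control RNAi (RPKM plus 0.1) of the chromosome 4 genes, 1 point per gene, with CLAMP RNAi as circles above MSL2 RNAi as squares in each role list. In the listed roles the points run from −0.65 to 0.10, and the widest range, −0.98 to 0.66, is among the 18 genes with no list.

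The 18 genes on no role list held most of the members past 1.5-fold. CG32017 was the lowest in CLAMP RNAi cells. It had an RPKM of 7.51 in CLAMP RNAi cells, 7.92 in MSL2 RNAi cells and 13.01 in control cells, and both knockdown libraries were well below control. Its read ratio was 0.577 in CLAMP RNAi cells (interval 0.542 to 0.614) and 0.609 in MSL2 RNAi cells (0.572 to 0.647). Rnf11, a RING finger gene, also was past 1.5-fold in both, with 508 reads in CLAMP RNAi cells, 492 in MSL2 RNAi cells and 786 in control cells and log2 ratios of −0.62 and −0.66. Rnf11 and CG32017 were the 2 members at least 1.5-fold lower in both comparisons. For Rnf11 this was near the edge. Its read ratios had intervals of 0.575 to 0.721 and of 0.560 to 0.703, which span 1.5-fold lower. With a pseudocount of 1 it stood at −0.51 and −0.54, short of 1.5-fold in both.

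Other members of this group were past 1.5-fold in MSL2 RNAi cells and not in CLAMP RNAi cells. CG31997 had 308 reads in CLAMP RNAi cells, 203 in MSL2 RNAi cells and 407 in control cells, with log2 ratios of −0.40 and −0.98. The gene yellow-h, of the Yellow family, had 1127 reads in CLAMP RNAi cells, 586 in MSL2 RNAi cells and 1143 in control cells, so that only the MSL2 RNAi library stood apart. Its log2 ratios were −0.03 and −0.95. CR33941 had 282 reads in CLAMP RNAi cells, 244 in MSL2 RNAi cells and 396 in control cells, with log2 ratios of −0.48 and −0.68. The counting interval of its read ratio in MSL2 RNAi cells ran from 0.525 to 0.727.

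The sole member past 1.5-fold upward was CG32021, which the current annotation lists as the pseudogene CR43361. It had 2100 reads in CLAMP RNAi cells, 3333 in MSL2 RNAi cells and 2107 in control cells, so the MSL2 RNAi library was high and the other libraries were alike. The read ratio was 0.993 in CLAMP RNAi cells (interval 0.934 to 1.06) and 1.586 in MSL2 RNAi cells (1.502 to 1.676). It is a model of 690 bases, and reads of a pseudogene may come from its parent gene, so its value is uncertain. In order along the chromosome it lies between unc-13 and eIF4G1, which stood at −0.17 and −0.34 in MSL2 RNAi cells.

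The 8 genes not below the major-arm median in CLAMP RNAi cells were CG31999 (log2 ratio 0.11), CG33521 (0.10), gw (0.01), CG1674 (−0.00), Mpv17 (−0.00), CG32021 (−0.01), yellow-h (−0.03) and CG11076 (−0.05). For CG1674 this depends on the transcript, since its 4 transcripts ran from −0.35 to 0.00 in CLAMP RNAi cells and the 2 with fewest reads were below the major-arm median. Some of these 8 genes are neighbours among the members. CG31999, yellow-h and CG1674 follow each other in annotated order, and so do Mpv17 and CG11076. Since it is not stated whether counting used strand, reads of overlapping neighbours could not be told apart. The 8 genes, in the order above, stood at −0.13, 0.16, −0.23, −0.46, −0.25, 0.66, −0.95 and 0.02 in MSL2 RNAi cells. The 3 genes not below the major-arm median in MSL2 RNAi cells were CG32021, CG33521 and Asator.

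The members nearest to control in both libraries were CG11076, CG31999 and mGluR. CG11076 had an RPKM of 64.6 in CLAMP RNAi cells, 67.7 in MSL2 RNAi cells and 66.9 in control cells, and all 3 values lie close together. CG31999 had 27.0, 23.0 and 25.1 in the same order, with control in the middle. The metabotropic glutamate receptor gene mGluR had 4.64, 4.65 and 5.16, with log2 ratios of −0.15 and −0.15. Of the remaining members without a list, CaMKI, a calcium/calmodulin-dependent kinase gene, stood at −0.52 and −0.50, CG31998 at −0.36 and −0.42, and CG11360 at −0.34 and −0.22. Slip1 was at −0.26 and −0.23, and the Ski family gene fuss at −0.40 and −0.02.

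Comparing the knockdown libraries with each other leaves the control library out. In MSL2 RNAi over CLAMP RNAi the median log2 ratio of chromosome 4 genes was 0.01, against 0.08 on the major arms. That puts chromosome 4 at −0.07 relative to the arms (−0.12 to −0.03 over genes), a smaller distance than against control. Over the alternatives tried it ran from −0.09 to −0.016. Of the members 31 lay above 0 and 25 below it, where 41.5% of all tested genes were below, a share near that of the members. Against the major-arm median, 44 of the 56 lay below, or 78.6%, beside 57.1% of all tested genes. The whole counting interval was below the major-arm median ratio for 30 members and above it for 9. Over all 7485 tested genes these counts were 3072 and 1963. Within 0.25 of 0 lay 47 of the 56, beside 67.4% of all tested genes. At least 1.5-fold lower was 1 member, yellow-h at −0.92, beside 3.62% of all tested genes. At least 1.5-fold higher was 1 member, CG32021 at 0.67, beside 4.24%. CG31997, at −0.58, was just short of 1.5-fold lower. With 1 control library, a difference that both knockdowns made and a feature of the control culture cannot be told apart.

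Set beside the X chromosome, chromosome 4 had another pattern over the libraries. In CLAMP RNAi cells the median log2 ratio was −0.32 on chromosome 4 and −0.05 over 1292 X-linked genes. In MSL2 RNAi cells it was −0.35 and −0.33. In MSL2 RNAi over CLAMP RNAi it was 0.01 on chromosome 4 and −0.27 on the X. The 4 major arms lay within 0.02 of their joint median in the comparisons with control. These differences between chromosomes are descriptions of single libraries and were not tested.

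Genes of pericentromeric heterochromatin, which carry HP1a as chromosome 4 does, gave values close to those of chromosome 4. The list had 22 genes on the major arms, all expressed. Its median log2 ratio was −0.33 in CLAMP RNAi cells and −0.36 in MSL2 RNAi cells, beside −0.32 and −0.35 on chromosome 4. Below the major-arm median lay 21 of the 22 in CLAMP RNAi cells and 20 in MSL2 RNAi cells, beside 50.2% and 57.5% of all tested genes. The list was chosen with earlier results of these data known, so its likeness to chromosome 4 is not an independent check. It also holds the ribosomal protein genes RpL5, RpL15 and RpL38, whereas RpS3A was left out of chromosome 4. The light gene lt, a classical gene of heterochromatin, stood at −0.39 and −0.22, and the cohesin loader gene Nipped-B at −0.56 and −0.28. Marf1 was the outlying member, at −0.07 in CLAMP RNAi cells and 1.41 in MSL2 RNAi cells. In MSL2 RNAi over CLAMP RNAi the list median was 0.04.

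**Figure D4:**
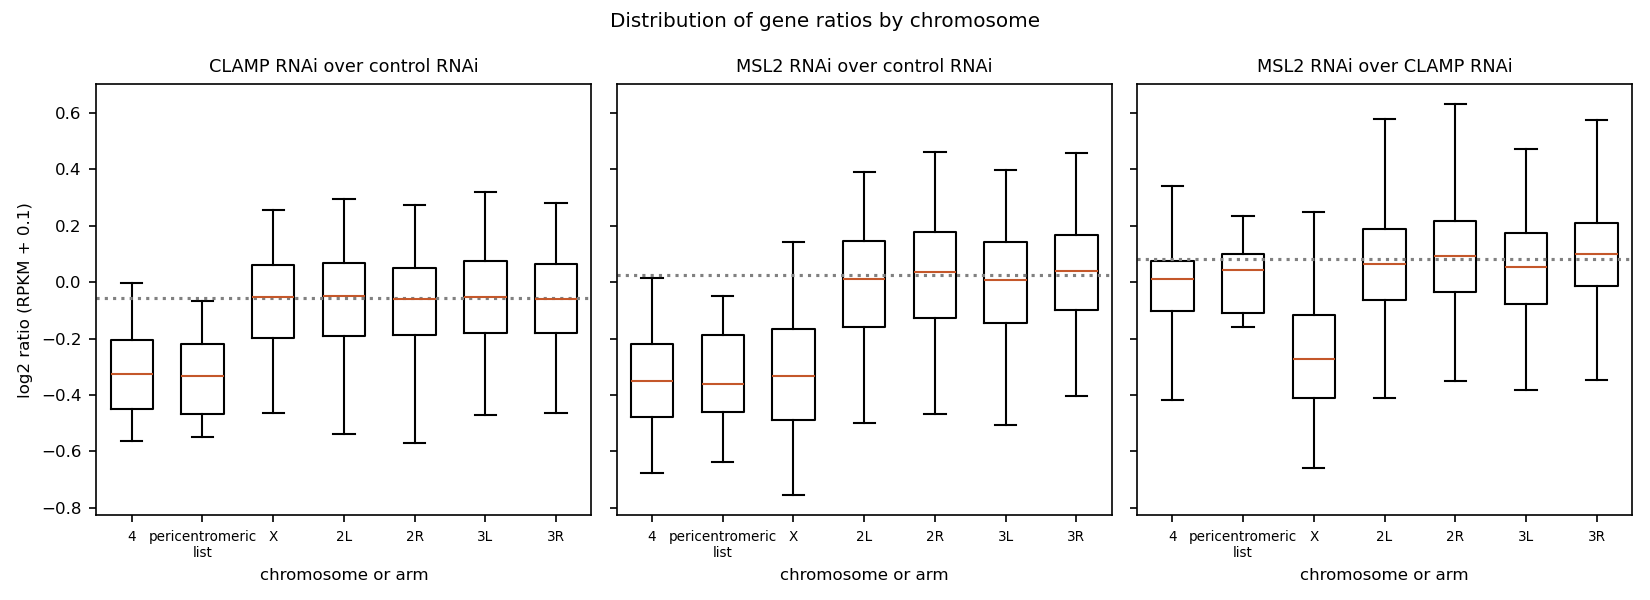
Log2 ratios (RPKM plus 0.1) of the 56 chromosome 4 genes, the 22 pericentromeric genes and the tested genes of the X and each major arm. Boxes span the middle 50% of genes with the median as a coloured line, whiskers run from the 5th to the 95th percentile, and the dotted line is the major-arm median. Chromosome 4 and the pericentromeric list lie low against control in both comparisons, whereas the X lies low in MSL2 RNAi over control and over CLAMP RNAi.

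The RNA of the genes known to act on chromosome 4 was also measured. Pof had an RPKM of 11.5 in CLAMP RNAi cells, 12.1 in MSL2 RNAi cells and 11.3 in control cells, with no large difference between libraries. The gene of HP1a had 94.0, 107 and 123 in the same order, and was highest in control cells. The methyltransferase gene egg, whose product marks chromosome 4 histones, had 28.2, 30.0 and 28.9. The gene of its cofactor, wde, had 6.23, 4.71 and 7.16, with log2 ratios of −0.20 and −0.59, so that it was past 1.5-fold in MSL2 RNAi cells. Su(var)2-HP2, which encodes a partner of HP1a, was at −0.44 and −0.21. Of 7 such genes measured, 5 were below the major-arm median in each comparison, beside 50.2% and 57.5% of all tested genes. The list medians were −0.09 and −0.18, beside −0.06 and −0.02 over all tested genes. With so few genes, the count is given as a value only. RNA levels do not measure the proteins.

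The members were also compared with major-arm genes of like level and length. Members were divided by mean RPKM into 3 groups of 18 or 19, and each was set against major-arm genes of the same range of levels. The differences were −0.30, −0.24 and −0.29 from the lowest to the highest group in CLAMP RNAi cells, and −0.40, −0.40 and −0.35 in MSL2 RNAi cells. By transcript length the differences were −0.26, −0.22 and −0.30 from the shortest to the longest genes in CLAMP RNAi cells. In MSL2 RNAi cells they were −0.40, −0.32 and −0.27. The longest genes, from 4026 to 10281 bases, were set against major-arm genes that were themselves lower, at −0.10 in both comparisons. By annotated order along chromosome 4, 3 such groups had medians of −0.36, −0.27 and −0.36 in CLAMP RNAi cells and of −0.39, −0.36 and −0.32 in MSL2 RNAi cells.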

How the data were processed

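Total RNA went through the Illumina Tru-seq procedure, per the labels' protocols. The submitters' processing notes name Bowtie and build dm3. For the counting tool, the annotation release and strand, the sources used here give nothing. The authors deposited, for 22353 transcripts, an RPKM value, a whole read count, a length and the library total. The deposited RPKM values equal the count scaled by length and total. The deposited counts of all transcripts add up to more than the library total, so isoforms share reads, and 1 transcript stood for each gene, the one with most reads on average.

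Identifiers were matched to a RefSeq table of assembly Release 6 plus ISO1 MT by locus tag (13783 genes) or a unique synonym (742), and 614 were not matched. That build differs, so no coordinates are given. Of the members, 53 matched by locus tag and 3 by synonym. Su(var)3-9 was not analysed here. The values of 1 member are not reported here, though counts and medians include it. Ratios were log2 of RPKM plus 0.1. No count model could be fitted with 1 library per group. Members past 1.5-fold and the 5 most expressed are given in full, and others by ratio. Members and lists were chosen with earlier results of these data known. The ratios and medians were tested on simulated data with counting error and no spread between cultures. That test checks the calculation only. Pseudocount, limits, transcript choice, scaling and background were varied. Python 3.11.15, pandas 2.3.3, numpy 2.4.6 and scipy 1.17.1 were used.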

Additional observations from a re-analysis of the deposited data

How the results depend on the processing

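Alternatives changed pseudocount, level limit, transcript choice, length limit, scaling, background and RpS3A. One chosen after seeing the data used locus tags only. The difference of chromosome 4 from the major arms kept its sign throughout, from −0.29 to −0.26 in CLAMP RNAi cells and from −0.39 to −0.30 in MSL2 RNAi cells. In MSL2 RNAi over CLAMP RNAi it was −0.031 without a level limit, −0.035 with the X added to the background and −0.016 for transcripts of at least 3 kb, against −0.07. Members 1.5-fold lower in CLAMP RNAi cells numbered 1 with a pseudocount of 1, 1 with the major-arm median at 0, and 12 of 83 without a level limit, against 3. Those higher in CLAMP RNAi cells numbered 1 without a limit, against 0. In MSL2 RNAi cells, those lower numbered 4 with a pseudocount of 1 and 4 of 50 with a mean RPKM of at least 5. For transcripts of at least 3 kb they numbered 2 of 28, against 6 of 56. Those higher numbered 2 without a limit and 0 for transcripts of at least 1 kb, of at least 3 kb or with locus tags only, against 1. The share of all genes past 1.5-fold was not computed under these settings, so these counts have no background beside them. Gene models added by dropping the limit had few reads, such as ci with 30 in CLAMP RNAi cells and 87 in control cells. Fewer genes were tested under the length limits, and locus tags leave out CG32021. No paired analysis was possible because each group has 1 library. Without replicates, depth limits single genes of few reads, and the spread between cultures is unknown.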

Other observations

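RpS3A, the ribosomal protein gene of chromosome 4 left out above, had 253318 reads in CLAMP RNAi cells, 278208 in MSL2 RNAi cells and 328918 in control cells, with log2 ratios of −0.38 and −0.24. It held fewer reads in both knockdown libraries than in control cells.

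The 30 gene models below the level limit include developmental regulators for which this chromosome is known. The Hedgehog effector gene ci had 30 reads in CLAMP RNAi cells, 113 in MSL2 RNAi cells and 87 in control cells. The eye development genes ey and toy had 16 and 44 reads in CLAMP RNAi cells, 24 and 48 in MSL2 RNAi cells, and 17 and 55 in control cells. The titin-like gene bt had 108, 139 and 143 reads. Together the 30 models held 852 reads in CLAMP RNAi cells, 1295 in MSL2 RNAi cells and 1495 in control cells, or read ratios to control of 0.568 and 0.869. These small counts are given as values only.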
